A study of Mus musculus with 2 samples.

Results

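The 10 genes described here are members of the circadian clock: Bhlhe40, Bhlhe41, Per2, Per3, Dbp, Nr1d1, Nr1d2, Arntl, Clock and Cry1. They were chosen by symbol among the 55488 gene rows of the count matrices, and all 10 were found in both libraries. The data are unique molecular identifier (UMI) counts per gene and cell from droplet single-cell RNA-seq, which reads the 3′ ends of transcripts, of mouse kidneys on postnatal day 0. In the Flcn KO library the kidneys were Six2Cre; Flcn flox/flox, and in the library labelled Flcn WT they were Six2Cre; Flcn flox/+, so that both carried Cre and the kidneys labelled WT were heterozygous per the design text. Six2Cre is active in nephron progenitors and in the nephron epithelium they give rise to, and not in the ureteric bud, stroma, endothelium or immune cells. Flcn encodes folliculin, a lysosomal protein that holds TFEB and TFE3, transcription factors of lysosomal genes, in check. The tissue label reads embryonic kidney, and the sources used here give neither the number of animals behind a library nor the time of day of collection.

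The clock is a transcriptional feedback loop. BMAL1, encoded by Arntl, pairs with CLOCK on E-box sequences and drives the Per, Cry, Nr1d, Dbp and Bhlhe genes. PER and CRY proteins repress that pair, NR1D1 and NR1D2 (REV-ERB alpha and beta) repress Arntl, and DBP drives a further set of genes through D-box sequences. BHLHE40 and BHLHE41 (DEC1 and DEC2) are repressors that bind the E-box themselves and also respond to signals other than the clock. In the adult mouse kidney many of these transcripts cycle over the day, with Arntl out of phase with Per2 and Dbp, so that their levels depend on the time of collection.

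The sequences upstream of 3 members are shown because they hold the letters of an E-box or a D-box. RefSeq gave upstream windows on GRCm38.p6 for 8 of the 10 members. The first is the 250 bases before the start of Bhlhe41, chr6:145865421-145865670 on the minus strand, the member with the largest ratio between the libraries. The others are 66 bases before Cry1, chr10:85185079-85185144, and 115 bases before Per3, chr4:151044786-151044900, both on the minus strand. Capitals mark CACGTG, the E-box, in Bhlhe41 and Cry1, and TTATGTAA, a D-box, in Per3.
Bhlhe41: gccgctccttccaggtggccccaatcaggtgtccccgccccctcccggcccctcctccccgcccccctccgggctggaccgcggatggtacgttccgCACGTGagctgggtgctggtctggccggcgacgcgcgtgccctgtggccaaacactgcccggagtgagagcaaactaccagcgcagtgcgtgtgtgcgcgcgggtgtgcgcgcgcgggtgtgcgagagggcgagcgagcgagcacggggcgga
Cry1: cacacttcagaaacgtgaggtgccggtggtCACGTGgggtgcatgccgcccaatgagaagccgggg
Per3: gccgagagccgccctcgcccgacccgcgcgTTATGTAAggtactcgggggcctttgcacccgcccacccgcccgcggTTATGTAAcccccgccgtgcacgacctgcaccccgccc
The E-box began 153 bases before the start of Bhlhe41 and 60 bases before that of Cry1, and the D-boxes began 205 and 158 bases before that of Per3. Searched on both strands, CACGTG was in 6.02% and TTATGTAA in 0.819% of the 32851 windows of 250 bases. AGGTCA, the core of the element that NR1D and ROR proteins bind, was in 14.02% of windows, among them windows of Clock and Nr1d2. The longer CLEAR element bound by TFEB, which contains CACGTG, was in 0.240% of windows, and its letters were not in the windows of the members. A match describes letters and says nothing about binding.

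After filtering, 4798 cells of the Flcn KO library (median 18458 UMIs) and 4000 cells of the Flcn WT library (median 20941.5 UMIs) were kept. Of these, 388 KO and 444 WT cells lay in clusters that were left unnamed. One of these, with 68 KO and 62 WT cells, scored highest for early nephron markers (0.633) and next for loop of Henle markers (0.417). Its 10 leading genes held more loop of Henle markers (Irx1, Irx2 and Sim2) than early nephron markers, so it was left out of both classes. No member was among the genes used to cluster the cells. There was 1 library per genotype, so genotype, animal, time of collection and library cannot be told apart, no test across samples was possible, and every 95% interval covers counting error only. Levels are given as CPM, the UMIs of a gene per 1000000 nuclear-encoded UMIs of the class, and a gene is said to be past 1.5-fold when its KO over WT ratio was at least 1.5 or at most its inverse, with at least 20 UMIs over both libraries. Flcn had 1429 KO and 1542 WT UMIs over all kept cells (11.1 and 12.2 CPM), and 112 and 55 in loop of Henle cells; reads from the 3′ end do not check the deletion. The loop of Henle class held 205 KO and 154 WT cells and held its defining markers. Umod, its secreted glycoprotein, had 36593 KO and 7750 WT UMIs there (3176 and 956 CPM, a ratio of 3.32). Slc12a1, its salt transporter, had 52097 and 63006 (4522 and 7768 CPM, a ratio of 0.582). Both markers were thus past 1.5-fold, in opposite directions, and the part of this in the other ratios of the class was not tested.

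Bhlhe41 was higher in the Flcn KO library in all 6 classes of the Six2 lineage, and the widest ratio was in loop of Henle cells. There it had 363 UMIs in the KO library and 16 in the WT library, or 31.5 CPM (28.3 to 34.9) and 1.97 CPM (1.13 to 3.20). The ratio was 16.0 (9.70 to 28.2). Proximal tubule cells held 146 KO and 15 WT UMIs, a ratio of 10.6 (6.22 to 19.4). In distal tubule cells the counts were 96 and 13, a ratio of 9.87 (5.50 to 19.2), and in podocytes 62 and 11, a ratio of 9.46 (4.94 to 19.9). The less mature classes had smaller ratios with wide intervals, 7.03 (3.75 to 14.4) in early nephron cells from 61 KO and 12 WT UMIs, and 4.46 (2.53 to 8.23) in nephron progenitors from 51 and 17. Over the pooled lineage Bhlhe41 stood at 13.5 CPM in the KO and 1.22 CPM in the WT library, a ratio of 11.0 (8.80 to 13.99). Each of these ratios stayed past 1.5-fold under every alternative that left 20 UMIs. The values that moved most were 28.4 in the loop of Henle, 18.4 in the distal tubule and 4.74 in podocytes as means over cells, 4.90 in the distal tubule and 3.93 in early nephron cells with at most 10% mitochondrial UMIs, and 5.63 in the proximal tubule with its clusters weighted equally.

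Among lineage classes the KO levels of Bhlhe41 ran from 31.5 CPM in the loop of Henle through 29.1 CPM in the distal tubule, 19.0 CPM in podocytes, 8.26 CPM in the proximal tubule and 5.25 CPM in early nephron cells to 4.90 CPM in progenitors. In that order the counting intervals of the loop of Henle and distal tubule overlapped, as did those of distal tubule and podocytes and those of early nephron cells and progenitors. The WT levels lay between 0.747 and 2.95 CPM, and the order of most neighbours among them was not beyond counting error. The proximal tubule was not uniform. Of its clusters, one with 236 KO and 207 WT cells held 143 KO and 14 WT UMIs of Bhlhe41, and the other, with 114 KO and 222 WT cells, held 3 and 1. Their ratios were 7.82 (4.51 to 14.7) and 5.37 (0.431 to 282.0), both below the 10.6 of the class; most KO cells lay in the first and most WT cells in the second. In the finer clustering (resolution 2) the proximal tubule clusters also differed in makeup, 1 with 185 KO and 7 WT cells, 1 with 40 and 130 and 1 with 17 and 155. The unnamed cluster of 68 KO and 62 WT cells, led by Erbb4, Irx1, Lama1 and Irx2, had 7 Bhlhe41 UMIs in each library. Its levels were 1.80 and 1.22 CPM, a ratio of 1.47 (0.441 to 4.92). Its Bhlhe40 counts were 242 and 95, a ratio of 3.75 (2.95 to 4.81). Another unnamed cluster, of 197 KO and 158 WT cells, had 22 and 2 Bhlhe41 UMIs, a ratio of 8.47 (2.08 to 74.3). In a further unnamed cluster, of 71 cells in each library, the Bhlhe41 counts were 25 and 6, a ratio of 4.57 (1.83 to 13.6). The last, of 52 KO and 153 WT cells, had 2 and 0.

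Outside the lineage Bhlhe41 had fewer than 20 UMIs over both libraries in each of the 6 other classes, so none of them was counted. Stroma had 13 KO and 3 WT UMIs (0.403 and 0.158 CPM) although it was the class with most cells, 2000 KO and 1154 WT. Endothelium had 3 and 0, mural cells 1 and 2, immune cells 4 and 2, and the ureteric bud and collecting duct 9 and 9. The intercalated cells, acid and base secreting cells of the collecting duct, had 14 UMIs in 5 of 17 KO cells, 7 of them in 1 cell, and 4 UMIs in 41 WT cells. Their levels were 14.5 and 1.40 CPM, a ratio of 10.3 (3.24 to 43.0) that lay within the range of the lineage classes but rested on 18 UMIs, under the minimum of 20. Pooled, the outside classes gave a ratio of 1.64 (0.944 to 2.93), and 1.33 without intercalated cells, an alternative chosen after seeing the data. With the looser cell filter of 500 UMIs and 250 genes the pooled ratio was 1.22.

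**Figure D1:**
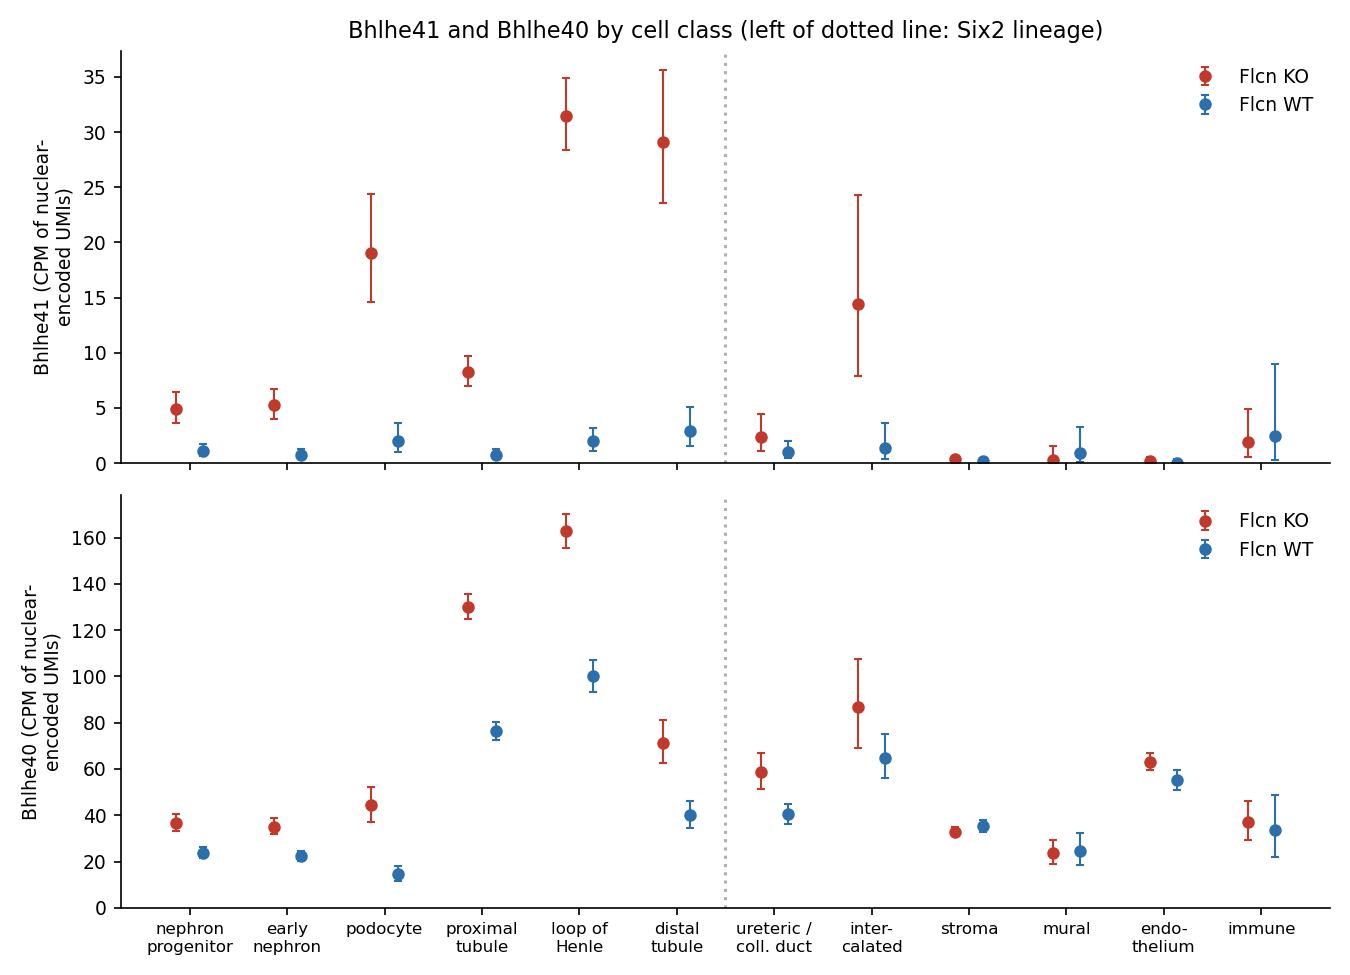
Level of Bhlhe41 (upper panel) and Bhlhe40 (lower panel) in CPM of nuclear-encoded UMIs by cell class, Flcn KO in red left of Flcn WT in blue; bars are exact Poisson 95% intervals, and the dotted line parts the 6 Six2 lineage classes from the 6 others. Bhlhe41 reached 31.5 CPM in KO loop of Henle cells against 1.97 CPM in WT cells, and stayed under 3 CPM in the outside classes other than intercalated cells.

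Counted per cell, 121 of 205 KO loop of Henle cells (59.0%, exact interval 52.0 to 65.8%) and 12 of 154 WT cells (7.79%, 4.09 to 13.2%) had at least 1 Bhlhe41 UMI. In the KO library 42 of those cells had 1 UMI, 25 had 2 and 54 had 3 or more, up to 12. With each cell thinned to 3000 UMIs, which left out 4 KO and 9 WT cells, the shares were 11.9% (7.80 to 17.2%) and 0.690% (0.0175 to 3.78%). At full depth endothelial cells, a class outside the Cre lineage, gave 0.659% of 455 KO cells and 0 of 296 WT cells. For the latter a limit of 3 cells, used in place of an exact interval, is a share of 1.01%. Median depth was 50701 and 41954 UMIs in KO and WT loop of Henle cells, and 26314 and 22913 in KO and WT endothelial cells. Within the KO loop of Henle class, Bhlhe41 was found in 72.6% of the 95 cells with a UMI of Gpnmb, a lysosomal glycoprotein gene driven by TFEB and TFE3, and in 47.3% of the 110 cells without one. The cells with Gpnmb were also deeper, at a median of 67446 against 38268.5 UMIs, and their Bhlhe41 level was 36.7 against 24.3 CPM; the part of depth in the difference of shares was not tested.

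**Figure D2:**
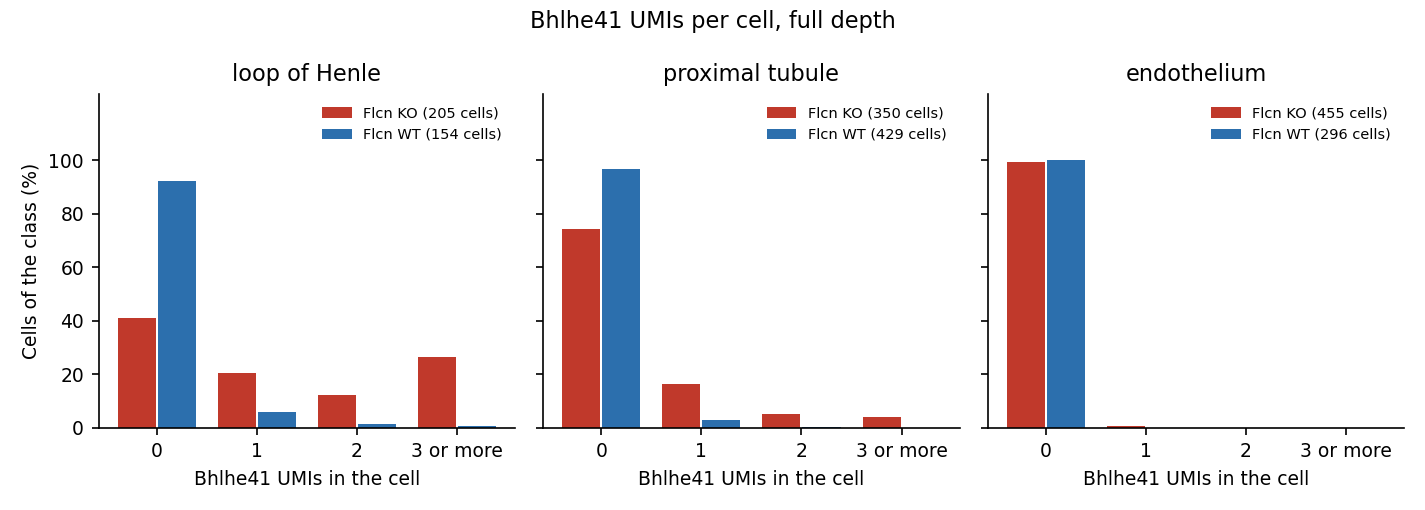
Percentage of cells by their number of Bhlhe41 UMIs at full depth in loop of Henle, proximal tubule and endothelial cells, Flcn KO in red left of Flcn WT in blue. In the loop of Henle 59.0% of KO cells and 7.79% of WT cells held at least 1 UMI, while nearly all endothelial cells of both libraries held 0.

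Bhlhe40, the paralogue of Bhlhe41, was also higher in the KO library along the lineage, by smaller ratios at higher counts. It was past 1.5-fold in 6 of 6 lineage classes and in 0 of 6 outside classes. Among outside classes the ratio passed the fold under 2 alternatives, at 1.61 in intercalated cells (1.34 otherwise) as a mean over cells and at 1.57 in endothelium with cells thinned to 3000 UMIs. In loop of Henle cells it had 1876 KO and 812 WT UMIs, 162.8 and 100.1 CPM, a ratio of 1.63 (1.497 to 1.77), which was 1.30 with cells thinned to 3000 UMIs. Proximal tubule cells had 2302 and 1471 UMIs, a ratio of 1.70 (1.59 to 1.82). The ratio was 1.78 (1.46 to 2.18) in the distal tubule, where the summed level of 11 immune markers was also higher in the KO library, at 214.7 against 36.1 CPM, and its part in the result was not tested. With at most 10% mitochondrial UMIs the distal ratio was 1.31.

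Among the named classes podocytes had the widest Bhlhe40 ratio, 3.02 (2.28 to 4.02), from 144 KO and 80 WT UMIs. One KO podocyte held 29 of the 144 UMIs, and without the cell with most UMIs in each library the ratio was 2.77. Early nephron cells (1.57, 1.36 to 1.82) and progenitors (1.54, 1.33 to 1.78) stood just past the fold, and the ureteric bud and collecting duct (1.45, 1.22 to 1.72) just short of it. In early nephron cells the ratio was 1.42 with the looser cell filter, 1.47 with doublets kept and 1.499 with clock genes left out of the clustering, while with cells thinned to 3000 UMIs it was 4.67. Stroma had 1062 KO and 671 WT UMIs, a ratio of 0.933 (0.846 to 1.03), and endothelium 1072 and 600, a ratio of 1.15 (1.04 to 1.27). Stroma clusters had Bhlhe40 ratios from 0.719 to 2.04, and with clusters weighted equally the stroma ratio was 1.13. The stroma cluster of 333 KO and 292 WT cells held 582 KO and 410 WT UMIs, a ratio of 1.32 (1.16 to 1.497). The immune class, at 1.10, held clusters that differed, 1 with 53 KO and 5 WT UMIs and 1 with 24 and 22.

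Per2, a repressor of the BMAL1 and CLOCK pair, differed in direction between classes at counts of over 100 UMIs. In loop of Henle cells it was lower in the KO library, with 113 UMIs against 146 in the WT library, 9.81 and 18.0 CPM, a ratio of 0.545 (0.422 to 0.701). In endothelium it was higher, with 401 KO and 130 WT UMIs, 23.6 and 11.9 CPM, a ratio of 1.98 (1.62 to 2.43). In stroma it had 831 KO and 308 WT UMIs, 25.8 and 16.2 CPM, a ratio of 1.59 (1.39 to 1.82). The ratio was above 1 in all 8 stroma clusters, from 1.02 to 2.61, and in both endothelial clusters, at 1.93 and 3.26. Intercalated cells had 55 KO and 106 WT UMIs, a ratio of 1.53 (1.08 to 2.13), from 17 KO and 41 WT cells, and 1.48 under TMM scaling. The intercalated ratio was short of the fold under 3 of 7 alternatives.

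In the remaining classes Per2 lay within 1.5-fold. It was 0.737 (0.623 to 0.871) in early nephron cells and 0.817 (0.678 to 0.983) in progenitors, and its intervals held 1 in the proximal tubule (1.01), distal tubule (0.993), podocytes (0.873), ureteric bud and collecting duct (0.922), mural cells (1.04) and immune cells (0.735). Over all kept cells the counts were 2985 and 2984, a ratio of 0.976 (0.928 to 1.03). With cells thinned to 3000 UMIs the stroma ratio was 1.34, short of the fold, and the progenitor ratio was 0.524, past it. The early nephron ratio was also past the fold with the looser cell filter (0.599) and with doublets kept, as was that of the distal tubule as a mean over cells (0.655). The immune ratio was 1.18 as a mean over cells.

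**Figure D3:**
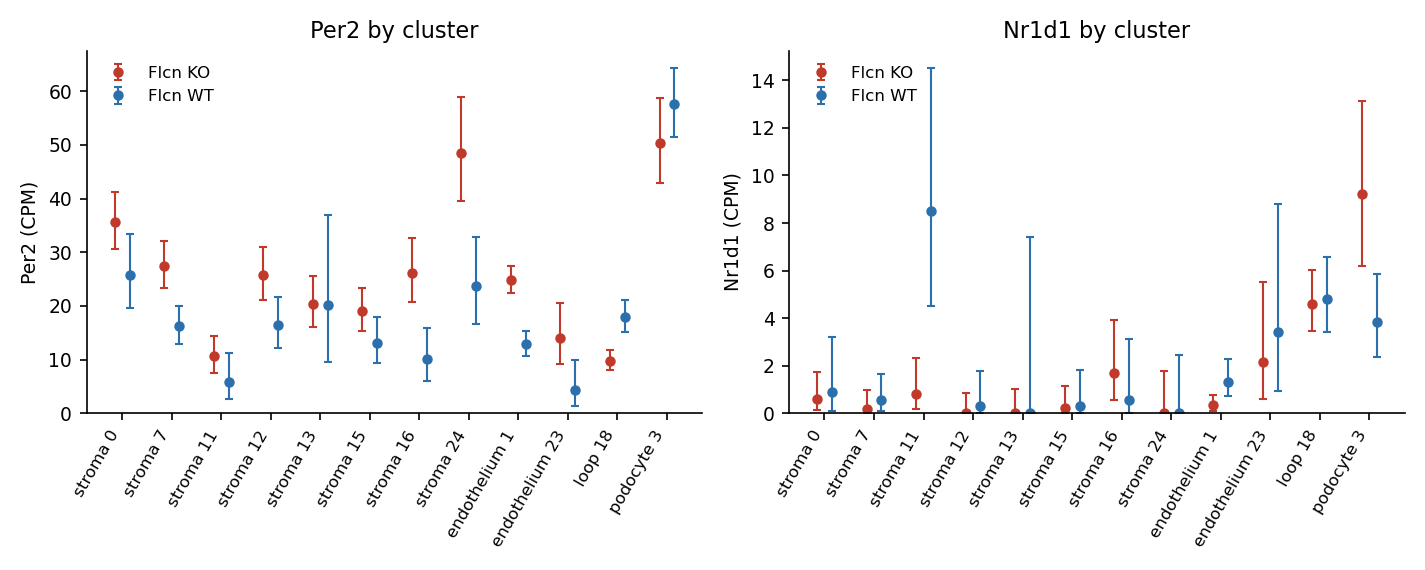
Levels of Per2 (left) and Nr1d1 (right) in CPM in each stroma and endothelium cluster, numbered as found, and in the loop of Henle and podocyte clusters, Flcn KO in red left of Flcn WT in blue, with exact Poisson 95% intervals. Per2 was higher in the KO library in all 8 stroma clusters, in some not beyond counting error, and in both endothelial clusters. It was lower in the loop of Henle. Most WT stroma UMIs of Nr1d1 came from cluster 11.

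Per3, the paralogue of Per2, had 1239 KO and 1346 WT UMIs over all kept cells, a ratio of 0.898 (0.831 to 0.971). It had 75 and 72 UMIs in the loop of Henle, a ratio of 0.733 (0.523 to 1.03). It was past 1.5-fold in 1 of 11 classes tested, mural cells, with 20 KO and 7 WT UMIs and an interval of 0.720 to 4.96 around 1.77; as a mean over cells that ratio was 1.32. Short of the fold otherwise, Per3 passed it as a mean over cells in intercalated cells (1.93) and the distal tubule (1.52), and in the loop of Henle with the looser cell filter (0.661). Per3 lies wholly within the annotated bounds of Camta1 on the same strand, and the handling of shared reads is not given in the sources used here.

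Dbp, the D-box activator and an output of the clock, stood out in podocytes. It had 159 UMIs in 118 KO podocytes and 62 UMIs in 195 WT podocytes, 48.8 and 11.3 CPM, a ratio of 4.30 (3.19 to 5.87). Podocytes with 1 or more Dbp UMIs made up 57.6% in the KO and 24.1% in the WT library, at median depths of 20003 and 17871 UMIs. The ratio was 2.96 in podocytes of the coarser clustering and 2.98 with the looser cell filter. In the other 9 classes with enough UMIs the ratio lay between 0.861 and 1.45, with 104 KO and 61 WT UMIs in the loop of Henle (1.20, 0.867 to 1.67). Some of these passed the fold under alternatives. The early nephron ratio, 1.35, was 2.74 and the progenitor ratio, 1.29, was 1.53 with cells thinned to 3000 UMIs. As a mean over cells the ureteric bud and collecting duct stood at 0.665, and with clusters weighted equally endothelium stood at 1.52.

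Nr1d1, a repressor of Arntl, was sparse, with 348 KO and 360 WT UMIs over all kept cells and a ratio of 0.943 (0.812 to 1.10). In podocytes it had 30 KO and 21 WT UMIs, a ratio of 2.40 (1.33 to 4.40), which was 1.53 with the looser cell filter. It was lower in the KO library in stroma, with 13 against 21 UMIs (0.365, 0.168 to 0.764), and in endothelium, with 9 against 17 (0.340, 0.134 to 0.807). Of the 21 WT stroma UMIs 13 came from 1 cluster of 87 cells, led by Nrxn3 and Cdkn1c, in which the KO library had 3 UMIs in 193 cells. The stroma ratio was 0.839 with the looser cell filter and 0.706 with doublets kept, both short of the fold. Nr1d1 had 53 KO and 39 WT UMIs in the loop of Henle (0.957, 0.621 to 1.49). In the distal tubule, from 13 and 14 UMIs, the ratio was 1.24, and 0.557 as a mean over cells. It was past the fold in early nephron cells with at most 10% mitochondrial UMIs (1.54) and in the proximal tubule as a mean over cells (1.52).

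Nr1d2, the paralogue of Nr1d1, lay within 1.5-fold in 11 of 12 classes, with 288 KO and 183 WT UMIs in the loop of Henle (1.11, 0.917 to 1.34). The exception was the immune class, with 8 KO and 12 WT UMIs (0.258, 0.0916 to 0.687). Under alternatives Nr1d2 passed the fold in the distal tubule and intercalated cells as a mean over cells (1.69 and 1.51) and in mural cells with thinning (0.608). Nr1d1 shares 1075 bases with Thra on the opposite strand, and Dbp shares 737 bases with Sphk2. The use of strand in counting is not given in the sources used here, and how reads from these stretches were assigned between the partners was not checked.

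Of the members that encode the driving pair, Arntl was past 1.5-fold in 2 of 12 classes and Clock in 0 of 12. Arntl had 370 KO and 244 WT UMIs in loop of Henle cells (32.1 and 30.1 CPM; 1.07, 0.906 to 1.26), and 592 and 409 in endothelium (0.930, 0.819 to 1.06). It was past 1.5-fold higher in mural cells, with 70 KO and 28 WT UMIs (1.55, 0.988 to 2.497, and 1.45 with doublets kept), and lower in intercalated cells, with 21 and 111 (0.557, 0.332 to 0.893). The mural ratio was short of the fold under 5 of 11 alternatives. In the proximal tubule Arntl stood at 1.44 (1.20 to 1.73) and in progenitors at 0.686 (0.511 to 0.912), both within the fold. Under alternatives both passed it, at 2.03 in the proximal tubule with cells thinned to 3000 UMIs and at 0.643 in progenitors as a mean over cells. The ureteric bud and collecting duct, at 0.703, stood at 0.544 as a mean over cells. With clusters weighted equally endothelium was at 0.654 and the immune class at 0.663.

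The ratios of Clock ran from 0.882 in the distal tubule to 1.31 (1.20 to 1.43) in the proximal tubule. It had 785 KO and 614 WT UMIs in the loop of Henle (0.900, 0.809 to 1.002). Cry1, which encodes the CRY1 repressor, was past the fold in the proximal tubule, with 388 KO and 273 WT UMIs (1.55, 1.32 to 1.81, and 1.496 with its clusters weighted equally), and in 2 small classes. These were intercalated cells, with 55 and 95 UMIs (1.70, 1.20 to 2.40), and immune cells, with 99 and 17 (2.26, 1.34 to 4.03). In the loop of Henle it had 269 KO and 180 WT UMIs (1.05, 0.868 to 1.28). With cells thinned to 3000 UMIs its ratio was 1.97 in podocytes (1.20 otherwise), 1.59 in progenitors and 0.560 in the ureteric bud and collecting duct, all past the fold, and as a mean over cells it was 1.68 in the distal tubule.

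**Figure D4:**
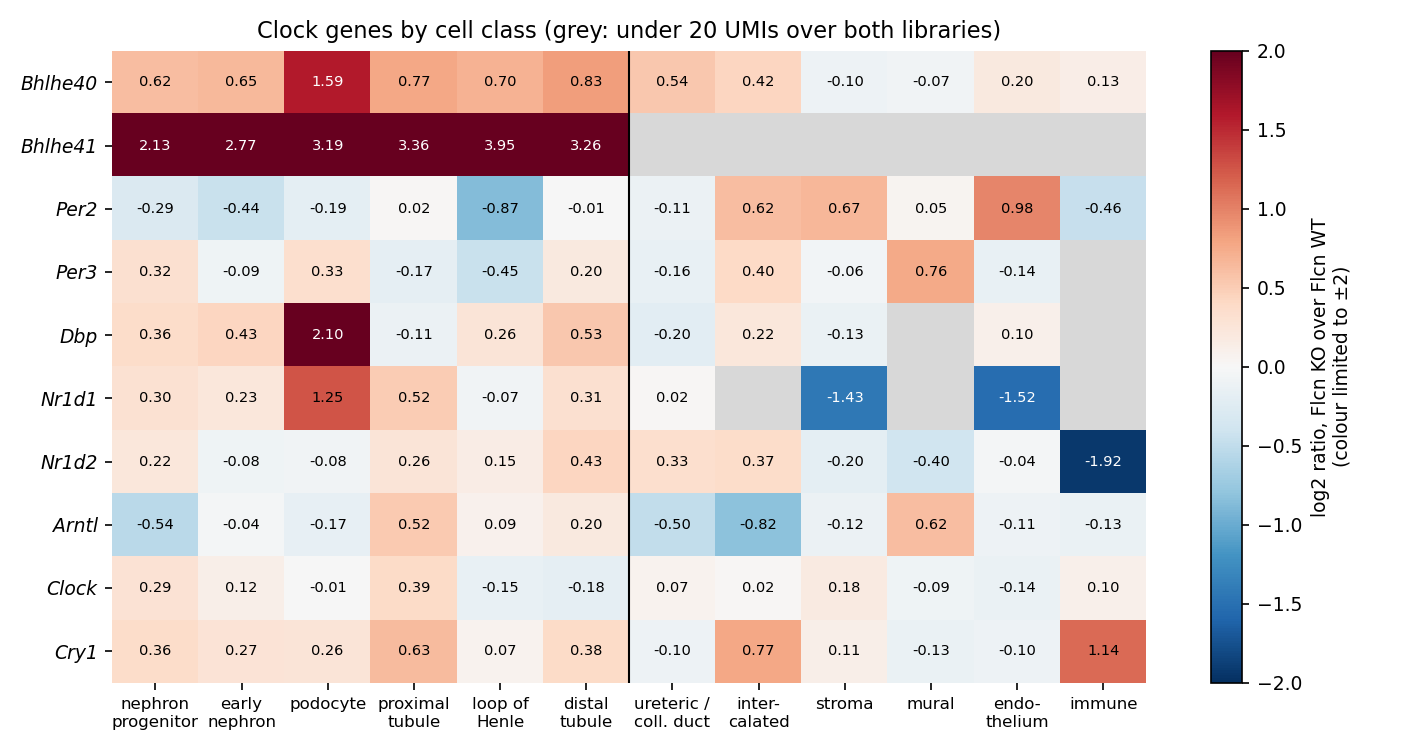
Log2 ratio of Flcn KO over Flcn WT for the 10 members (rows) in 12 cell classes (columns), the 6 Six2 lineage classes left of the line; grey cells had under 20 UMIs over both libraries, and colour is limited to 2 in size. Bhlhe41 and Bhlhe40 are above 0 in every lineage class, while Per2 is at -0.87 in the loop of Henle and 0.98 in endothelium.

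The members past the fold were set against all genes tested in the same class. Of the 10 members in loop of Henle cells 2 were past 1.5-fold higher in the KO library and 1 lower, where 11.2% of all genes tested were higher and 16.4% lower. In podocytes 4 of 10 were higher (Bhlhe40, Bhlhe41, Dbp and Nr1d1) and 0 lower, against 10.7% and 9.47% of genes. In the proximal tubule 3 of 10 were higher against 13.3%, in the distal tubule 2 of 10 against 10.2%, in early nephron cells 2 of 10 against 5.81% and in progenitors 2 of 10 against 6.33%. None of the members was lower in these 4 classes, against 13.4%, 10.3%, 7.52% and 7.53% of genes.

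Outside the lineage, stroma and endothelium each had 1 member higher (Per2) and 1 lower (Nr1d1) of 9 tested. The background there was 7.35% and 5.52% of genes in stroma, and 6.22% and 5.19% in endothelium. Intercalated cells had 2 higher and 1 lower of 8, against 11.6% and 8.79%. Mural cells had 2 higher and 0 lower of 7, against 8.87% and 7.15%, and immune cells 1 higher and 1 lower of 6, against 11.7% and 9.95%. In the ureteric bud and collecting duct 0 of 9 were past the fold, against 5.89% higher and 6.64% lower. Pooled over the outside classes 1 of 10 was higher (Bhlhe41) and 1 lower (Nr1d1, 36 KO and 74 WT UMIs, 0.362), against 8.46% and 10.5%, and over the pooled lineage 2 were higher and 0 lower, against 7.79% and 12.1%.

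Because Arntl is out of phase with Per2 and Dbp in the adult mouse kidney, the genes were also read as lists over the whole library. The Per list held 7 members (Bhlhe40, Bhlhe41, Per2, Per3, Dbp, Nr1d1 and Nr1d2) and Per1, Ciart, Tef, Hlf, Usp2, Cry2 and Noct. The Arntl list held Arntl, Clock, Cry1, Npas2, Arntl2, Nfil3, Rora and Rorb. These lists do not part genes strictly by phase, since Cry1 is itself driven by BMAL1 and CLOCK. The Per list also holds Bhlhe41 and Bhlhe40, the members with the largest ratios over all kept cells. A difference in the time of collection was not tested. Over all kept cells the median log2 ratio was 0.10 for the 14 genes of the Per list and 0.12 for the 8 genes of the Arntl list, against -0.01 for the 25756 genes tested. The medians in the loop of Henle were 0.20 and -0.23, against -0.04 for all genes. In podocytes they were 0.33 and -0.01, in the proximal tubule 0.03 and 0.39, in stroma 0.07 and 0.12, and in endothelium 0.10 and -0.12. These medians stood beside wide ranges, from -0.36 to 2.84 in the Per list over all kept cells and from -0.50 to 0.36 in the Arntl list. In the loop of Henle the genes ran from -0.87 to 3.95 in the Per list and from -1.01 to 1.11 in the Arntl list.

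Over all kept cells 2 of the 10 members were past 1.5-fold higher, Bhlhe41 at 7.21 (5.95 to 8.81) and Bhlhe40 at 1.55 (1.503 to 1.61), and 0 were lower, against 10.6% and 9.04% of all genes. With clusters or classes weighted equally Bhlhe41 was at 4.11. Bhlhe40 was short of the fold where the mean was taken over cells (1.33), where cells were thinned (1.41) and where clusters or classes were weighted equally (1.44, chosen after seeing the data). The other 8 members lay between 0.898 (Per3) and 1.14 (Cry1 and Dbp). Of 19 further clock genes 0 were past the fold over all kept cells. Those farthest from 1 were Per1, the early-responding Per gene (4729 KO and 3397 WT UMIs, 1.36), Rorb, a nuclear receptor (520 and 719, 0.706), and Hlf, a relative of Dbp (1476 and 1854, 0.777). They were followed by Usp2 at 1.21, Timeless at 0.814, Arntl2 at 1.28, Btrc at 0.883 and Rora at 1.10.

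**Figure D5:**
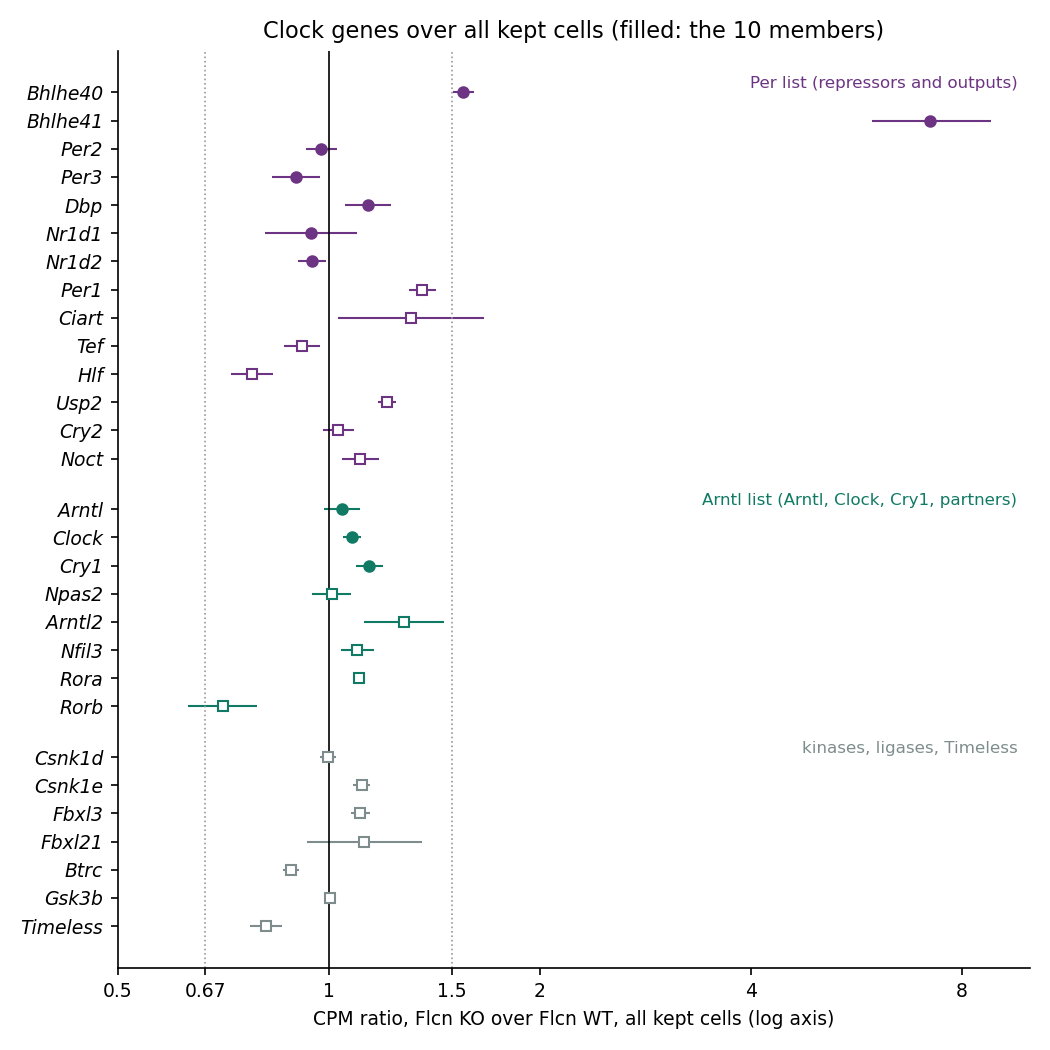
Ratio of Flcn KO over Flcn WT over all kept cells (log axis) for the 10 members (filled) and 19 further clock genes (open), with exact 95% counting intervals; dotted lines mark 1.5-fold in each direction. Only Bhlhe41, at 7.21, and Bhlhe40, at 1.55, lie past the fold among the genes shown.

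Within classes some further clock genes were past the fold. Hlf was higher in KO podocytes, with 63 UMIs against 28 in WT podocytes (3.77), and lower in the KO proximal tubule, with 427 against 809 (0.574). Of genes chosen after their values were seen, Npas2, which can replace CLOCK, had 100 KO and 11 WT UMIs in the distal tubule (12.1), and Nfil3, a repressor at the D-box, had 191 and 62 in the loop of Henle (2.17). Of 18 such genes tested in the loop of Henle, 1 (Nfil3) was higher and 3 (Arntl2, Npas2 and Timeless) were lower, against 11.2% and 16.4% of all genes.

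Genes that respond to other signals known to reach Per and Bhlhe genes were counted beside them. Of 10 glucocorticoid-responsive genes 6 were past 1.5-fold higher in the KO library over all kept cells, 7 in the loop of Henle, 7 in stroma and 4 in endothelium, against 10.6%, 11.2%, 7.35% and 6.22% of all genes. Zbtb16, a transcription factor of that list, had 19728 KO and 4806 WT UMIs over all kept cells (4.01), 2089 and 256 in the loop of Henle (5.74), 7194 and 917 in stroma (4.62) and 4186 and 685 in endothelium (3.93). Fkbp5, a chaperone of the glucocorticoid receptor, had 15320 and 7249 UMIs over all kept cells (2.06), 2729 and 758 in the loop of Henle (2.53), 3948 and 1023 in stroma (2.27) and 1889 and 695 in endothelium (1.75). Tsc22d3, of the same list, lay at 1.40 over all kept cells and at 0.977 in endothelium. Klf9, also of that list, lay at 1.71 over all kept cells, 1.62 in the loop of Henle, 1.96 in stroma and 1.06 in endothelium. The part of the listed genes in the Per2 ratios was not tested.

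Of 15 immediate-early and heat shock genes 1 was past the fold higher over all kept cells and 0 lower, and of 13 hypoxia genes 2 were higher and 0 lower, against 10.6% and 9.04% of all genes. Of 14 genes driven by TFEB and TFE3 or in the folliculin pathway, 13 were past the fold higher in the pooled lineage, against 7.79% of all genes. In the loop of Henle 13 were higher, against 11.2%, the exception being Flcn itself, and in podocytes 11 of 12, against 10.7%. The distal tubule had 10 of 14 higher, against 10.2%. The proximal tubule had 8 of 14 higher and 1 lower, against 13.3% and 13.4%. Early nephron cells had 8 of 13 higher, against 5.81%, and progenitors 6 of 13, against 6.33%. In stroma 1 of the 14 was higher, against 7.35%, and in endothelium 0 of 12, against 6.22%. The ureteric bud and collecting duct had 4 of 14 higher, against 5.89%. Intercalated cells had 3 of 13 higher and 1 lower, against 11.6% and 8.79%. Mural cells had 1 of 12 higher, against 8.87%, and immune cells 2 of 12, against 11.7%. These counts stand beside the Bhlhe41 and Bhlhe40 ratios of the same classes, and their part in them was not tested.

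Over 22 points, 11 classes with at least 50 cells in each library, taken in both libraries, the genes whose log2(CPM + 5) was most like that of Bhlhe41 among 20118 genes were Gm45847 (Pearson r 0.93), Neil2 (0.92), Ogdhl (0.88), Gm45846 (0.88), Cuta (0.82) and Lingo4 (0.81). Gm45846 and Gm45847 are annotated long non-coding RNAs whose bounds overlap on chromosome 7, so their counts are not independent. Gm45846 had 868 KO and 77 WT UMIs in loop of Henle cells (7.94), and Ogdhl 123 and 14 (6.18). Of the other members the closest were Nr1d1 (0.63), Dbp (0.55) and Bhlhe40 (0.52), and Per2 was at 0.01. Among the 14 listed genes driven by TFEB and TFE3 or in the folliculin pathway, r ran from 0.12 (Flcn) and 0.43 (Fnip1) to 0.79 (Mcoln1) and 0.81 (Rragd). Points of 1 library share that library, and the list of genes was not stable, with 1 of the 6 shared when ranked by Spearman rho, 1 with KO points alone and 0 with WT points alone.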

How the data were processed

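The deposited files hold raw UMI counts per gene and cell barcode, 1 matrix per library. Cell Ranger was version 7.1.0 for the KO and 7.0.0 for the WT library, per the file headers. The submitters' processing notes name bcl2fastq 2.20.0, STAR 2.7.2a and GRCm38 (mm10). The matrices held 5991 KO and 5572 WT barcodes, 149679281 and 147390790 UMIs, and 5 barcodes in common.

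Filters of 1000 UMIs, 500 genes and 20% mitochondrial UMIs left 5040 KO and 4187 WT barcodes; 11.6% and 17.7% were over the mitochondrial limit. Scrublet (scanpy 1.11.5) called 63 and 2 doublets, under 0.5% in WT, so barcodes with the top scores were removed at the expected doublet rate, 242 and 187. Leiden clusters (resolution 1, 2000 variable genes, 40 components, 20 neighbours, both libraries together) were named from marker lists by a score of at least 0.35, a lead of 0.05 and 3 markers found in at least 10% of cells. A cluster stayed unnamed where its 10 leading genes held more markers of another class than of its own, or where it had low UMIs and none of its own there.

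UMIs were summed per class and library. The KO over WT ratios carry exact conditional 95% intervals, levels carry exact Poisson intervals and shares exact Clopper-Pearson ones. Counting error alone is covered, and a share with a count of 0 was given a limit of 3 cells. The members, marker lists, gene lists and naming thresholds were chosen with earlier results of these data known. All members are reported. Of 19 further clock genes (1 more that had been listed is not reported here), the 8 farthest from 1 over all kept cells by the nearer interval bound are named, with at least 100 UMIs. The 6 genes most like Bhlhe41 are named. TMM (edgeR 4.0.16) and median-of-ratios scaling (DESeq2 1.42.0) were alternatives. Simulated counts used to check the intervals were Poisson draws, as the intervals assume, without variation between animals, libraries or cells. With 1 library per group, edgeR and DESeq2 tests were not possible.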

Additional observations from a re-analysis of the deposited data

Results flagged for a closer look

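Per2 went opposite ways between classes of the same 2 libraries. Its KO over WT ratio was 0.545 in the loop of Henle, against 1.98 in endothelium, 1.59 in stroma and 1.53 in intercalated cells. Nr1d1 did so at far lower counts, with ratios of 2.40 in podocytes, 0.365 in stroma and 0.340 in endothelium. With 1 library per genotype the differences between classes were not tested.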

How the results depend on the processing

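Over 1486 values, the ratios of members by class under each alternative, 1385 moved by less than the counting interval and 101 by more, with 0 changes of sign among called values and 24 lost calls; an alternative that left a member under 20 UMIs in a class gave no value. The Bhlhe41 ratio in loop of Henle cells ran from 13.4 to 28.4 over 11 alternatives, the highest being the mean over cells of each cell's CPM. Over the pooled lineage the Bhlhe41 ratio was 8.63 with classes weighted equally. Over all kept cells the count of members past the fold higher was 1 with cells thinned to 3000 UMIs, 1 with the mean over cells and 1 with equal weights. In loop of Henle cells thinning left 1 higher and 0 lower, with fewer members reaching 20 UMIs, and the looser cell filter (500 UMIs and 250 genes) gave 2 lower; the cause of the other shifts was not tested. The share of KO loop of Henle cells with a Bhlhe41 UMI was 23.4% at 10000 UMIs and 59.0% unthinned, and the WT share was 7.79% unthinned. Of the 6 genes most like Bhlhe41, 1, 1 and 0 were shared by Spearman rho, KO points and WT points. Scaling by TMM or by median of ratios moved log2 ratios by at most 0.06 in size.

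Depth limits the outside classes for Bhlhe41, with under 20 UMIs in each, and Nr1d1 in 3 of 12 classes. No paired analysis was possible because there is 1 library per genotype.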
